A study of Nicotiana tabacum with 21 samples.

Results

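The transcripts described here are 4 neighbours of the auxin receptor gene NtTIR1T on its genomic scaffold in tobacco (Nicotiana tabacum), named by their IDs Nitab4.5_0000824g0060.1, Nitab4.5_0000824g0110.1, Nitab4.5_0000824g0120.1 and Nitab4.5_0000824g0130.1 and called g0060, g0110, g0120 and g0130 below. They were taken by ID from the 69491 transcripts quantified, with NtTIR1T (Nitab4.5_0000824g0070.1) itself left out, and are 4 of the 13 transcripts of scaffold Nitab4.5_0000824. Their order is that of the gene numbers in the IDs, since no positions on the scaffold were used here. DNA was not analysed here, so the number of gene copies behind each transcript level is not part of these data.

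The study compared suspension cells that need auxin in the medium with cells that have become habituated, which means that they divide without supplied auxin. BY-2H, the habituated line of cultivar Bright Yellow 2 kept by a public collection, was grown in auxin-free Murashige and Skoog medium, and its dependent counterpart BY-2 in the same kind of medium with 2,4-D. VBI-2, the habituated line derived from VBI-0 of cultivar Virginia Bright Italia, was grown in auxin-free modified Heller medium, and VBI-0 in that medium with 2,4-D and NAA. All cultures were kept in darkness. Stationary and exponential BY-2H, stationary BY-2, and stationary and exponential VBI-2 and VBI-0 cells gave 7 groups of 3 libraries, 21 in all. Exponential BY-2 cells were not analysed here. Stationary cells were 10 d old by the labels (the study's methods give a younger age for BY-2) and exponential cells 3 d old. Each cultivar is represented by 1 habituated line, and the labels and the study call the replicates biological without saying how they were separated, so the p-values measure the spread between these libraries.

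Whether auxin was supplied changed with the line in both pairs, and read pairs of 150 bp from Novogene were used for BY-2H, whereas all other libraries were single reads of 50 bp from GATC-Biotech. Between BY-2H and BY-2, effects of the line, of the auxin supplied and of company and read type cannot be told apart. BY-2H and VBI-2 were both grown without auxin but in different media (Murashige and Skoog, and modified Heller), so that effects of line, medium, company and read type cannot be told apart between them. Company and read type were the same for all 12 VBI libraries. Estimated reads per library (read pairs in BY-2H) lay between 10545447 and 22564711. Stationary BY-2 libraries stood farther apart from each other than the replicates of other groups, at 28.7 to 31.8 times the variance of read sampling (chi-squared per degree of freedom over transcripts) against 2.03 to 8.11, and their replicate 2 had the lowest RNA integrity listed by the study. For the neighbours of NtTIR1T, fold changes or adjusted p that rest on BY-2 are therefore also given without replicate 2. For other transcripts no fit without replicate 2 is given.

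NtTIR1T encodes a homolog of TIR1, an F-box protein. In plants, TIR1 and its relatives bind auxin together with AUX/IAA repressors, which are then marked for degradation. This frees auxin response factors (ARFs), DNA-binding proteins that regulate auxin-responsive genes. In the study's gene table, g0120 is classed in the ARF family. No product name for g0060, g0110 or g0130 was found in the tables used here, so they are described by ID alone, with no role. The transcripts were 834 (g0060), 1260 (g0110), 852 (g0120) and 1846 bases (g0130) long in the reference used for quantification, against 1851 bases for NtTIR1T.

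Levels are given as TPM, Salmon's measure of abundance per effective length scaled to the same total in each library, by which transcripts can be compared, and tests were made on the estimated reads with edgeR's quasi-likelihood test. A transcript was called higher or lower where the p adjusted after Benjamini and Hochberg was 0.05 or less and the log2 fold change was 1 or more in size (the fold limit). All 4 neighbours passed the filter on low levels (a group mean over 0.5 TPM) and were tested in each comparison. In bulk RNA, fewer cells that express a gene and less RNA per cell cannot be told apart.

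The neighbours of NtTIR1T did not move together in BY-2H. In stationary cells, g0110 was 23.0-fold higher in BY-2H than in BY-2 and g0060 was detected in BY-2H alone of the pair, whereas the ARF family transcript g0120 and g0130 were lower. All 4 of 4 were called, 2 higher and 2 lower, where 43.1% of the 47271 transcripts tested were called in this comparison, 20.3% higher and 22.8% lower. Their TPM ranges did not overlap between BY-2H and BY-2 libraries, but the share of all transcripts with separate ranges was not counted, so this does not set them apart. Their median log2 fold change was 1.52 (0.83 with g0060 at the lower bound given below), against −0.06 over all transcripts tested. This median lies midway between g0130 (−1.48) and a higher neighbour, with no neighbour near it, and does not describe a shift of all 4. NtTIR1T, which checks the label of the line, had 1275, 1240 and 1227 TPM in stationary BY-2H, against 11.7, 6.04 and 5.81 TPM in stationary BY-2.

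**Figure D1:**
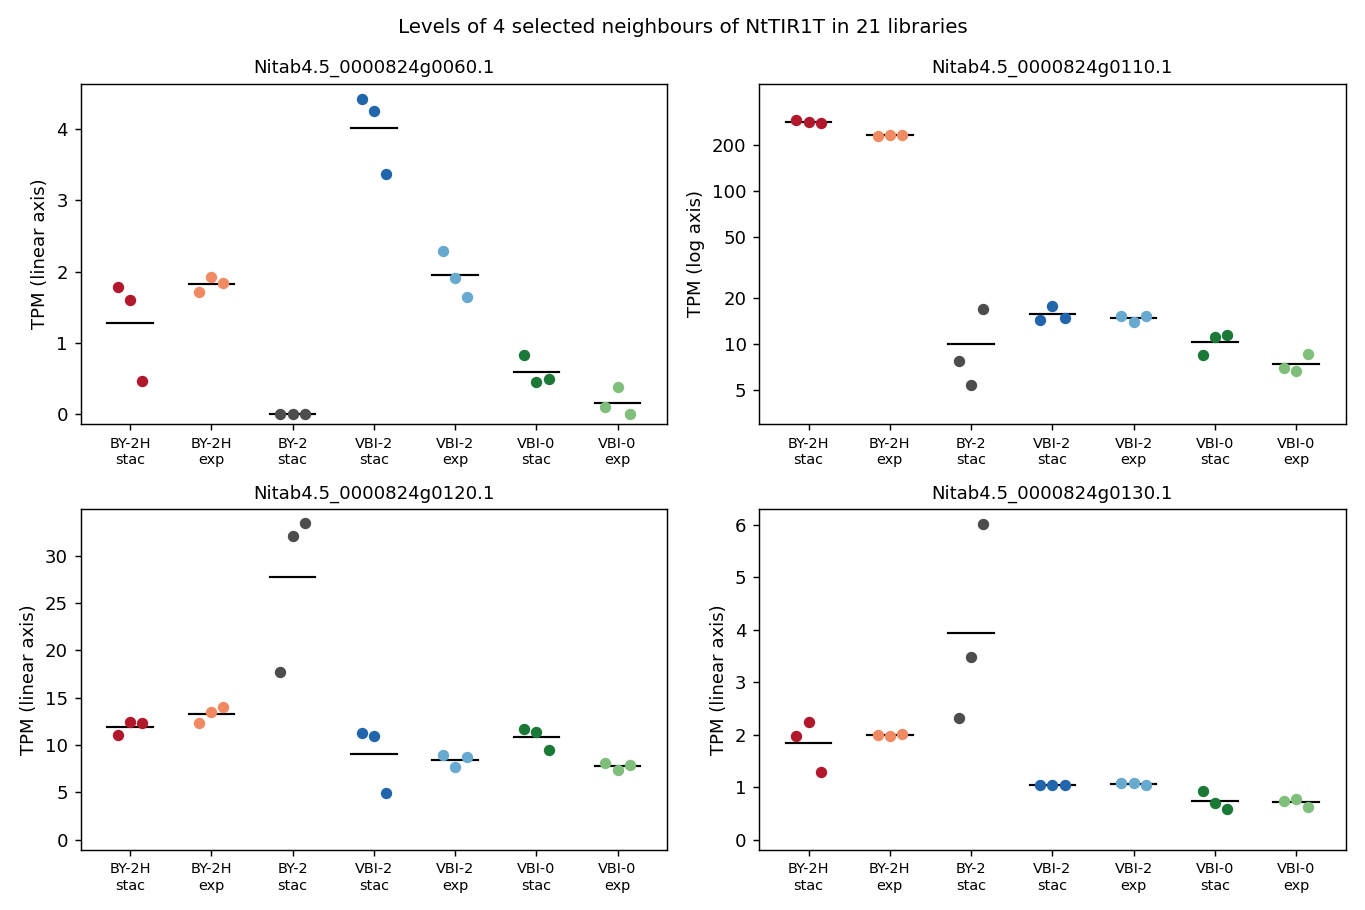
TPM of g0060, g0110, g0120 and g0130 in each of the 21 libraries by group, with lines at the group means (n = 3). The axis of g0110 is logarithmic and the others are linear; g0110 lies between 228 and 289 TPM in the 6 BY-2H libraries, and the highest levels of g0060 are those of stationary VBI-2.

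The most abundant neighbour in BY-2H and VBI-2 was g0110, whose product is not named, whereas g0120 had the highest group means in BY-2 and VBI-0. By library, g0110 stood at 289, 281 and 277 TPM in stationary BY-2H, against 7.73, 5.41 and 16.9 TPM in stationary BY-2. Every BY-2H library was far above every BY-2 library, and among the BY-2 libraries replicate 3 was the highest. The means were 282 ± 6.08 TPM in BY-2H and 10.0 ± 6.08 TPM in BY-2 (SD, n = 3 each). The log2 fold change was 4.52, with an SE of 0.32 (adjusted p = 1.64e-06, edgeR), the 2512th highest of the 47271 tested, and 4.31 without BY-2 replicate 2. Among all 69491 transcripts ordered by mean TPM, g0110 stood at place 530 in stationary BY-2H and at place 13846 in stationary BY-2.

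In exponential BY-2H, g0110 stood at 228, 230 and 232 TPM, and in the VBI lines it was at the low level of BY-2. In stationary VBI-2 it had 14.4, 17.6 and 14.8 TPM, and in exponential VBI-2 15.3, 14.0 and 15.1 TPM. In stationary VBI-0 it had 8.41, 11.1 and 11.4 TPM, and in exponential VBI-0 6.92, 6.71 and 8.59 TPM. By group mean the order was stationary BY-2H, exponential BY-2H, stationary VBI-2, exponential VBI-2, stationary VBI-0, stationary BY-2 and exponential VBI-0. The ranges of neighbouring groups in this order overlapped between the phases of VBI-2, between stationary VBI-0 and BY-2, and between BY-2 and exponential VBI-0, and the others were separate. VBI-2 exceeded VBI-0 in both phases without overlap, by log2 fold changes of 0.58 (SE 0.14, adjusted p = 0.00104, edgeR) in stationary and 0.90 (SE 0.14, adjusted p = 8.49e-06, edgeR) in exponential cells, which passed the adjusted p and missed the fold limit. Without VBI-0 exponential replicate 3 the value in exponential cells was 1.05, past the limit.

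The level of g0110 did not stand in one proportion to that of NtTIR1T. Its TPM was 0.227, 0.226 and 0.226 times that of NtTIR1T in stationary BY-2H, against 0.663, 0.896 and 2.91 times in stationary BY-2. In exponential BY-2H the ratio was 0.200, 0.190 and 0.196. The ratio varied least among the stationary BY-2H libraries, and it lay between 3.87 and 7.30 in VBI-2 and between 6.40 and 16.04 in VBI-0, where NtTIR1T itself had at most 3.96 and 1.12 TPM. In BY-2 the library with the highest g0110 (replicate 3) was the one with the lowest NtTIR1T, at 5.81 TPM. Replicate 2 was close to it, at 6.04 TPM of NtTIR1T.

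Reads assigned to g0110 were not whole numbers in any of the 21 libraries, as happens where Salmon shares reads between similar transcripts. The files do not record which ones. Such values were common and do not set g0110 apart. Of the transcripts with reads, 45.9% to 51.1% had them in each BY-2H library, against 78.8% to 82.2% in each other library. This share changed with the read type, and its effect on BY-2H against BY-2 was not tested. A transcript of the scaffold that holds NtTIR1S, the homolog of NtTIR1T from the other parental subgenome, was also higher in stationary BY-2H: Nitab4.5_0003614g0020.1 had 53.4, 51.7 and 57.6 TPM in stationary BY-2H, against 3.62, 5.71 and 9.08 TPM in stationary BY-2, with reads that were not whole numbers in all 21 libraries. This was a difference of 2.83 on the log2 scale (SE 0.29, adjusted p = 1.74e-05, edgeR). Whether it is related to g0110 is not annotated in the tables used here. The TPM of g0110 was 5.41, 5.43 and 4.81 times that of Nitab4.5_0003614g0020.1 in stationary BY-2H, against 2.13, 0.948 and 1.86 times in stationary BY-2, and 0.711 to 1.38 times in the 12 VBI libraries. With the reads of both summed into 1 feature, an alternative chosen after the data had been seen, the log2 fold change of BY-2H against BY-2 was 4.04 (adjusted p = 1.48e-06, edgeR). NtTIR1S (Nitab4.5_0003614g0030.1), the next gene number on that scaffold, had 3.11, 3.40 and 4.28 TPM in stationary BY-2H, against 3.76, 2.71 and 2.43 TPM in stationary BY-2, which overlap, and was not called (log2 fold change −0.17, SE 0.30, adjusted p = 0.652, edgeR). The remaining transcript there, Nitab4.5_0003614g0010.1, had 8, 3 and 4 reads in stationary BY-2H, against 0 reads in each stationary BY-2 library. It was called higher (log2 fold change 5.29, SE 1.49, adjusted p = 0.0156, edgeR), with a size that depends on a group with 0 reads. So 2 of 3 transcripts of that scaffold were called higher and 0 lower, where 20.3% and 22.8% of all transcripts tested were.

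**Figure D2:**
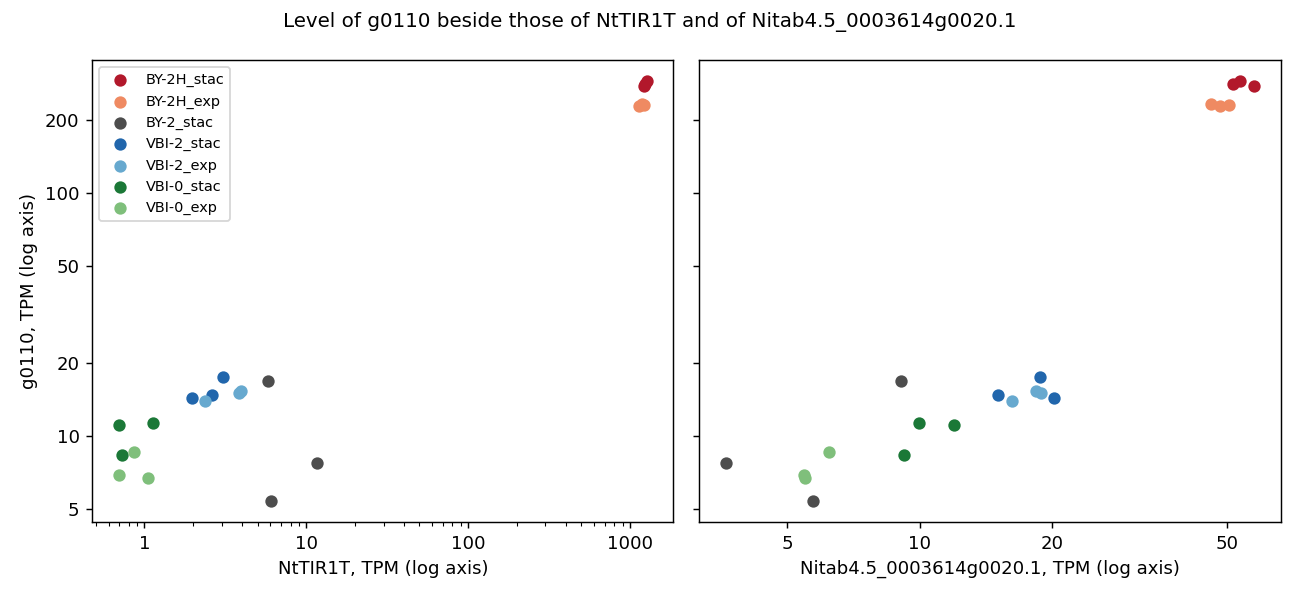
TPM of g0110 (vertical, log axis) against TPM of NtTIR1T (left) and of Nitab4.5_0003614g0020.1 (right), both on log axes, with 1 point per library coloured by group. The 6 BY-2H libraries stand apart from the other 15 in both panels, and stationary BY-2 libraries hold more NtTIR1T (5.81 to 11.7 TPM) than VBI libraries at similar levels of g0110.

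The neighbour numbered just before NtTIR1T, g0060, was scarce in all lines. It had 14, 11 and 3 reads in stationary BY-2H, against 0 reads in each of the 3 stationary BY-2 libraries. In TPM this was 1.79, 1.60 and 0.46 in BY-2H, where replicate 3 was the lowest, against 0 in BY-2. A count of 0 allows up to 3 reads per library, as many as BY-2H replicate 3 held. With BY-2 set at 3 reads over the group, the 28 reads of BY-2H gave 8.77-fold higher g0060. This lower bound allows for counting error in BY-2 and not in BY-2H. The test on the reads as counted, 0 in BY-2, gave adjusted p = 0.00544 (edgeR). Bounds and intervals of this kind cover counting error only. The adjusted p was 0.0108 without BY-2 replicate 2. In exponential BY-2H there were 13, 14 and 13 reads (1.71, 1.92 and 1.84 TPM).

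The highest levels of g0060 were those of VBI-2, the habituated line in which NtTIR1T was at a few TPM. In stationary cells it had 4.42, 4.25 and 3.36 TPM in VBI-2, against 0.832, 0.453 and 0.496 TPM in VBI-0. This was a 7.34-fold difference (105 against 14 reads, 95% interval 4.18 to 13.9), and 2.87 on the log2 scale (SE 0.46, adjusted p = 1.75e-05, edgeR). In exponential cells it had 2.29, 1.91 and 1.65 TPM in VBI-2, against 0.0973, 0.386 and 0 TPM in VBI-0. This was a 15.1-fold difference (54 against 4 reads, 95% interval 5.59 to 57.6; adjusted p = 1.97e-05, edgeR), and its size rests on few VBI-0 reads: the log2 fold change of 3.75 became 5.11 without VBI-0 replicate 2 and 3.05 without VBI-0 replicate 3. All VBI-2 libraries lay above all VBI-0 libraries in both phases. So g0060 was higher in the habituated line of both pairs, by a bound in one and by a ratio in the other. Among the 4 neighbours it was the one called in VBI-2, 1 of 4 in each phase, where 39.9% of the 48440 transcripts tested were called in stationary cells (17.7% higher, 22.3% lower) and 38.5% in exponential cells (17.1% higher, 21.5% lower). NtTIR1T was also higher in VBI-2 than in VBI-0, at 1.97, 3.05 and 2.60 TPM against 0.724, 0.693 and 1.12 TPM in stationary cells (log2 fold change 1.497, SE 0.27, adjusted p = 7.07e-05, edgeR) and with a log2 fold change of 1.92 (SE 0.26) in exponential cells.

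By group mean, g0060 was ordered stationary VBI-2, exponential VBI-2, exponential BY-2H, stationary BY-2H, stationary VBI-0, exponential VBI-0 and stationary BY-2. The ranges of exponential VBI-2, both BY-2H groups and stationary VBI-0 overlapped from each to the next in that order, as did those of exponential VBI-0 and BY-2. Between the habituated lines, g0060 was lower in stationary BY-2H than in stationary VBI-2 (log2 fold change −1.51, SE 0.46, adjusted p = 0.00608, edgeR), where 53.4% of 49980 transcripts were called, 26.3% higher and 27.1% lower. In exponential cells the difference was 0.01 (SE 0.46, adjusted p = 1, edgeR).

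The ARF family transcript g0120 had 11.1, 12.5 and 12.3 TPM in stationary BY-2H, against 17.7, 32.0 and 33.5 TPM in stationary BY-2. The BY-2H libraries lay close together, and in BY-2 replicate 1 was the lowest. The means were 11.97 ± 0.779 TPM in BY-2H and 27.7 ± 8.71 TPM in BY-2 (SD, n = 3 each). The log2 fold change was −1.49, with an SE of 0.30 (adjusted p = 0.00181, edgeR), and −1.16 (adjusted p = 0.00406, edgeR) without BY-2 replicate 2. Reads of g0120 were whole numbers in all 21 libraries, 95 to 103 in stationary BY-2H and 153 to 317 in stationary BY-2, so that no sharing with other transcripts was recorded for it.

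Outside BY-2, g0120 lay between 4.96 and 14.0 TPM, lowest in replicate 3 of stationary VBI-2. It had 12.3, 13.5 and 14.0 TPM in exponential BY-2H. In stationary cells it had 11.2, 10.96 and 4.96 TPM in VBI-2, against 11.7, 11.4 and 9.51 TPM in VBI-0. In exponential cells it had 8.96, 7.71 and 8.72 TPM in VBI-2, against 8.08, 7.33 and 7.95 TPM in VBI-0. The VBI ranges overlapped in both phases, with log2 fold changes of −0.05 (SE 0.23, adjusted p = 0.877, edgeR) in stationary and 0.09 (SE 0.23, adjusted p = 0.773, edgeR) in exponential cells. BY-2 was the highest group, separate from all others, and from exponential BY-2H down to exponential VBI-0 the ranges of neighbouring groups overlapped. The log2 difference of BY-2H from VBI-2 was 0.65 (SE 0.27, adjusted p = 0.0338, edgeR) in stationary and 0.89 (SE 0.26, adjusted p = 0.00474, edgeR) in exponential cells, both under the fold limit.

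Among the 49 transcripts of the ARF family, g0120 ranked 5 by mean TPM in stationary BY-2H and 2 in stationary BY-2, where the class medians were 3.96 and 4.17 TPM. It ranked 5 and 7 in stationary and exponential VBI-2, and 14 and 17 in stationary and exponential VBI-0. In stationary BY-2H, 7 of the 48 ARF transcripts tested were called higher and 23 lower than in BY-2 (20.3% and 22.8% of all transcripts), with a median log2 fold change of −0.89 against −0.06 over all, and g0120 is 1 of the 23. In VBI-2, 3 were called higher and 26 lower in stationary cells (17.7% and 22.3% of all transcripts) and 4 higher and 20 lower in exponential cells (17.1% and 21.5%), without g0120. The auxin receptor class, which holds NtTIR1T, had 3 of 13 tested transcripts higher and 2 lower in stationary BY-2H. Its median log2 fold change there was 0.47.

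The last neighbour by gene number, g0130, was low throughout. It had 1.97, 2.25 and 1.3002 TPM in stationary BY-2H, against 2.32, 3.48 and 6.02 TPM in stationary BY-2. The groups did not overlap, but BY-2H replicate 2 and BY-2 replicate 1 were close, and BY-2 replicate 3 was far above the rest. The means were 1.84 ± 0.490 TPM in BY-2H and 3.94 ± 1.89 TPM in BY-2 (SD, n = 3 each). The log2 fold change was −1.48, with an SE of 0.35 (adjusted p = 0.00433, edgeR), and −1.51 without BY-2 replicate 2. Without BY-2 replicate 3 it was −1.13 (adjusted p = 0.00965, edgeR), closer to the fold limit. The call was lost with limma on log2(TPM + 0.5), where the difference was −0.86 (adjusted p = 0.0889, limma).

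In exponential BY-2H, g0130 had 1.99, 1.98 and 2.02 TPM. In stationary cells it had 1.04, 1.05 and 1.05 TPM in VBI-2, against 0.923, 0.695 and 0.585 TPM in VBI-0. In exponential cells it had 1.08, 1.08 and 1.05 TPM in VBI-2, against 0.746, 0.779 and 0.625 TPM in VBI-0. VBI-2 libraries lay above VBI-0 libraries in both phases, but the log2 fold changes of 0.31 (SE 0.27, adjusted p = 0.334, edgeR) and 0.39 (SE 0.26, adjusted p = 0.209, edgeR) did not pass. Stationary BY-2 was the highest group, followed by both BY-2H groups, both VBI-2 groups and both VBI-0 groups. The phases of BY-2H, of VBI-2 and of VBI-0 overlapped, and the 4 lines were separate from one to the next.

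The scaffold held transcripts called in both directions. Of the 10 tested in BY-2H against BY-2, 4 were called higher (g0020, g0060, NtTIR1T and g0110) and 3 lower (g0040, g0120 and g0130), where 20.3% of all transcripts tested were higher and 22.8% lower. Between NtTIR1T and g0110, by gene number, lie g0080, g0090 and g0100, none of which was called. For g0080, TPM was 5.55 ± 0.995 in stationary BY-2H and 5.397 ± 3.75 in stationary BY-2 (SD, n = 3 each). The log2 difference was −0.53 (SE 0.50, adjusted p = 0.386, edgeR). Its sign is opposite to that of the mean TPM. The estimated reads, on which the test was made, summed to 185 in BY-2H and 236 in BY-2. By library, stationary BY-2 had 3.98, 9.65 and 2.56 TPM of g0080. Replicate 2 lay above every stationary BY-2H library, and replicates 1 and 3 lay below every one. The result for g0080 therefore leans on replicate 2, and a fit without it is not given. For g0100 the log2 fold change was 0.02, with an SE of 0.78 (adjusted p = 0.983, edgeR) on 17 and 16 reads over the 3 libraries of BY-2H and of BY-2, so only large differences would be detectable. For g0090 there were 6 reads in stationary BY-2H and 1 read in stationary BY-2. Before g0060, g0020 was higher in BY-2H (20.6 ± 3.27 TPM, against 7.25 ± 1.51 TPM in BY-2; SD, n = 3 each; log2 fold change 1.35, SE 0.22, adjusted p = 0.000407, edgeR). The transcript g0040 was lower (2.75 ± 1.34 TPM, against 6.12 ± 1.80 TPM in BY-2; SD, n = 3 each; log2 fold change −1.36, SE 0.41, adjusted p = 0.0171, edgeR). The transcripts g0010, g0030 and g0050 had 0 reads in all BY-2H and BY-2 libraries.

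**Figure D3:**
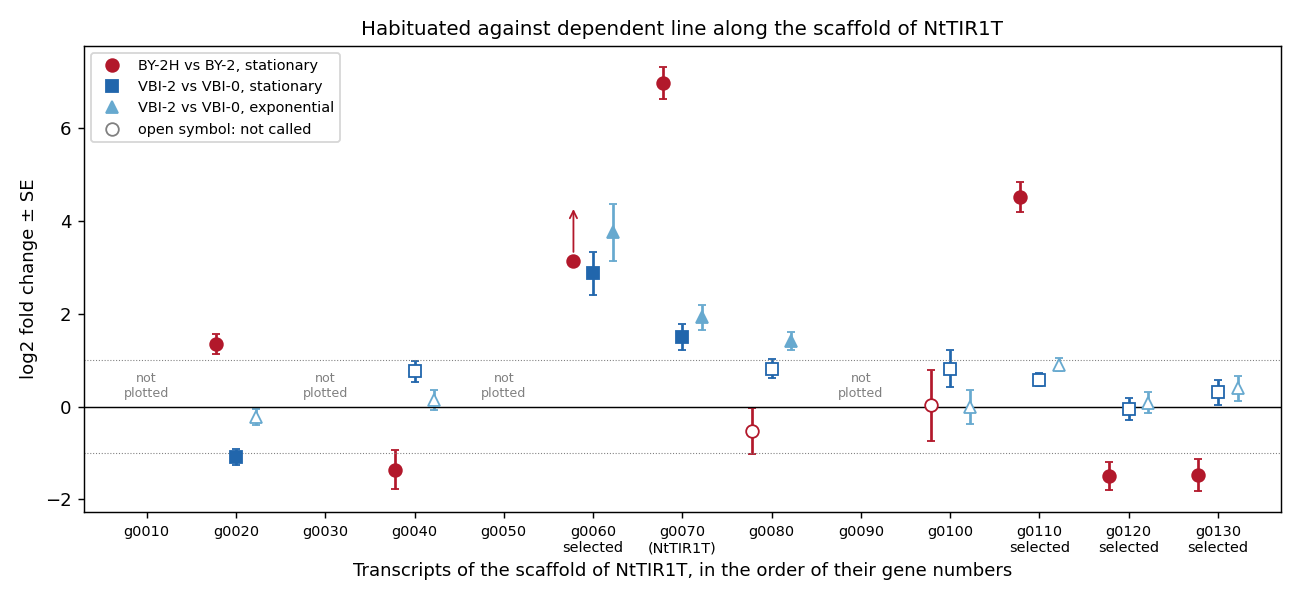
Log2 fold change with SE of the habituated against the dependent line for transcripts of the scaffold, in the order of their gene numbers, with BY-2H against BY-2 in red and VBI-2 against VBI-0 in blue. Dotted lines mark the fold limit, open symbols were not called, and the arrow marks a lower bound (g0060, 0 reads in BY-2). Transcripts with few or no reads are not plotted. NtTIR1T (6.97) and g0110 (4.52) rise above g0080 and g0100 between them. The g0080 value in red includes BY-2 replicate 2, which held the most g0080 of the BY-2 libraries.

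In VBI-2 against VBI-0, 2 of 10 tested transcripts of the scaffold were called higher and 1 lower in stationary cells (g0060, NtTIR1T and, lower, g0020), and 3 higher and 0 lower in exponential cells (g0060, NtTIR1T and g0080; edgeR, with 0 lower also at an unadjusted p under 0.05). Of all transcripts tested, 17.7% were called higher and 22.3% lower in stationary cells, and 17.1% higher and 21.5% lower in exponential cells. Here too g0110 and NtTIR1T differed in size: the log2 fold change of NtTIR1T was 1.92 in exponential cells, against 0.90 for g0110.

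Whether the 2 pairs of lines differed was tested for stationary cells as the BY-2H minus BY-2 difference less the VBI-2 minus VBI-0 difference, with the adjusted p alone, under which 52% of 49682 transcripts were called (27.5% higher, 24.5% lower). For g0110 the 2 differences were 4.52 and 0.58, and the test gave 3.97 (SE 0.35, adjusted p = 1.03e-07, edgeR). For g0120 they were −1.49 and −0.05, with −1.42 (SE 0.44, adjusted p = 0.0123, edgeR), and for g0130 they were −1.48 and 0.31, with −1.76 (SE 0.46, adjusted p = 0.00445, edgeR). For g0060 the test gave adjusted p = 0.0559 (edgeR), and 0.0233 without BY-2H replicate 3. Its size depends on a group with 0 reads and turned negative with limma (−0.32 on log2(TPM + 0.5)). So 3 of 4 passed, also without BY-2 replicate 2 (3.64, −1.21 and −1.90). With limma on log2(TPM + 0.5) or log2(TPM + 1), g0120 no longer passed (−0.80 and −0.79, adjusted p = 0.129 and 0.117, limma). Company and read type changed with the line in the first pair and not in the second.

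Of the 4 neighbours, 0 were called between stationary and exponential cells of BY-2H, VBI-2 or VBI-0 (edgeR), where few transcripts were called at all. The shares were 2.68% of 44765 in BY-2H (1.72% higher and 0.963% lower in stationary cells), 1.6% of 48440 in VBI-2 (0.993% higher, 0.603% lower) and 4.45% of 48440 in VBI-0 (1.97% higher, 2.49% lower). At an unadjusted p under 0.05 there were 1 of 4 in BY-2H (g0110), 1 of 4 in VBI-2 (g0060) and 2 of 4 in VBI-0 (g0060 and g0110), and DESeq2 and limma also called 0. The shares above are for the adjusted p with the fold limit. The share of all transcripts at the unadjusted limit was not counted in any comparison, so counts at that limit have no background here. The 3 stationary BY-2H libraries held 277 to 289 TPM of g0110 and the 3 exponential ones 228 to 232 TPM, a difference of 0.31 on the log2 scale (SE 0.07, adjusted p = 9.28e-05, edgeR) under the fold limit. NtTIR1T had 1227 to 1275 TPM in stationary and 1140 to 1213 TPM in exponential BY-2H, a difference of 0.07 on the log2 scale (SE 0.05, adjusted p = 0.568, edgeR). In VBI-2, g0060 was at 3.36 to 4.42 TPM in stationary and 1.65 to 2.29 TPM in exponential cells, which do not overlap and differ by 1.01 on the log2 scale (SE 0.38, adjusted p = 0.164, edgeR). In VBI-0 the phases differed by 1.89 on the log2 scale for g0060 (SE 0.75, adjusted p = 0.0920, edgeR) on 14 and 4 reads, and by 3.24 (adjusted p = 0.0216, edgeR) without exponential replicate 2. For g0120 and g0130 the phase differences lay between −0.10 and 0.24 on the log2 scale in the 3 lines. A dependence of the VBI line difference on the phase was tested with the adjusted p alone, and 0 of 4 passed (smallest adjusted p = 0.396, for g0110, edgeR; 0 of 4 at an unadjusted p under 0.05, and 0 of 4 with limma and with DESeq2, which gave g0060 no adjusted p), where 6.82% of 48440 transcripts did (4% higher, 2.82% lower).

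**Figure D4:**
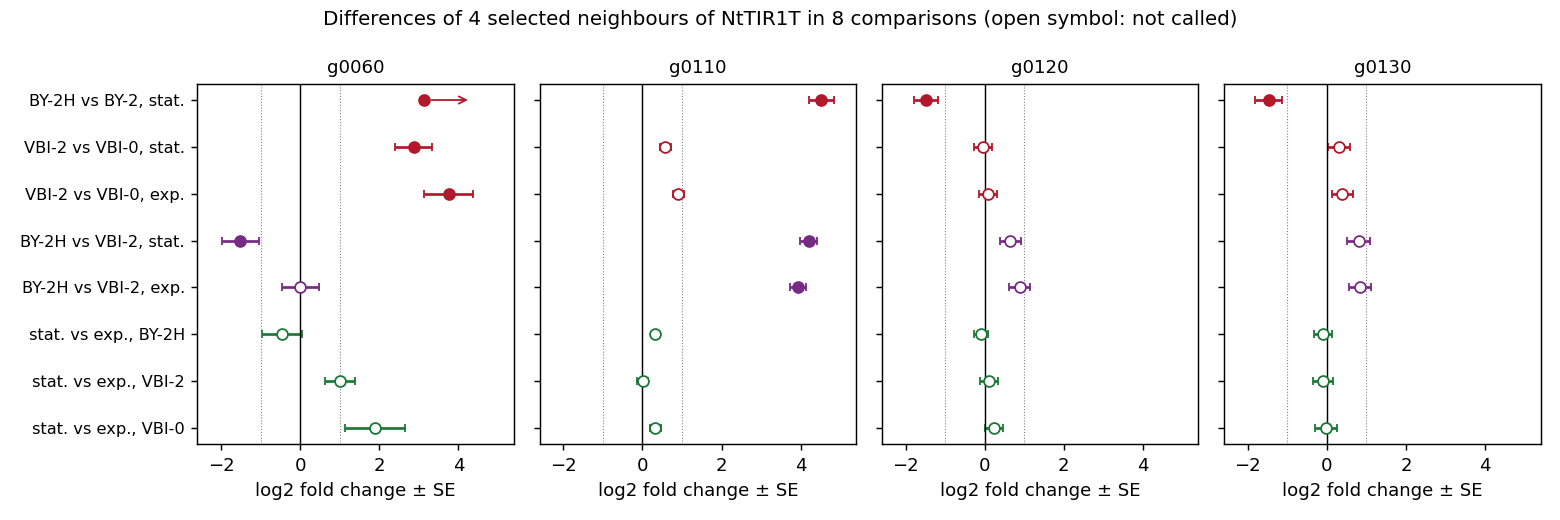
Log2 fold change with SE of g0060, g0110, g0120 and g0130 in the 8 comparisons between 2 groups (red between habituated and dependent lines, purple between the habituated lines, green between phases). Open symbols were not called, dotted lines mark the fold limit and the arrow marks a lower bound; g0110 is high wherever BY-2H is set against another line (4.52, 4.20 and 3.93).

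Against VBI-2, the other habituated line, g0110 was higher in BY-2H by log2 fold changes of 4.20 (SE 0.21, adjusted p = 2.06e-14, edgeR) in stationary and 3.93 (SE 0.21, adjusted p = 5.80e-14, edgeR) in exponential cells. In stationary cells 2 of 4 neighbours were called (g0110 higher, g0060 lower), and in exponential cells 1 of 4 (g0110 higher), where 53% of 49980 transcripts were called (26.3% higher, 26.6% lower). The differences of g0130 from VBI-2 were 0.80 (SE 0.29) and 0.84 (SE 0.28) on the log2 scale, under the fold limit. NtTIR1T stood at log2 fold changes of 8.86 (SE 0.30) and 8.35 (SE 0.29) in the same comparisons.

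Likeness of pattern was measured as Pearson's r of log2(TPM + 0.5) over the 21 libraries, which share line, company and phase within groups, as a description without a test. With NtTIR1T, r was 0.964 for g0110, which placed NtTIR1T 409th among 49979 transcripts, and 0.237, 0.248 and 0.480 for g0060, g0120 and g0130. Since 6 libraries are from BY-2H and stand apart, the value of g0110 mostly restates the contrast of BY-2H with the rest. The transcripts most like g0110 were Nitab4.5_0004273g0020.1 (r = 0.993), Nitab4.5_0003887g0010.1 (r = 0.993) and Nitab4.5_0011992g0010.1 (r = 0.990), all on other scaffolds. Nitab4.5_0003887g0010.1 averaged 131 TPM in stationary BY-2H and 5.75 TPM in stationary BY-2. The closest to g0060 were Nitab4.5_0005222g0050.1 (r = 0.943), Nitab4.5_0002216g0030.1 (r = 0.941) and Nitab4.5_0002314g0010.1 (r = 0.936). The closest to g0120 were Nitab4.5_0000322g0010.1 (r = 0.940), Nitab4.5_0000048g0100.1 (r = 0.927) and Nitab4.5_0003461g0060.1 (r = 0.925). The closest to g0130 were Nitab4.5_0008775g0010.1 (r = 0.961), Nitab4.5_0006826g0010.1 (r = 0.958) and Nitab4.5_0000278g0170.1 (r = 0.951). Among the 4 neighbours the most alike pair was g0130 and g0120 (r = 0.837), both highest in stationary BY-2, and the least alike g0120 and g0060 (r = −0.42).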

How the data were processed

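RNA was sequenced in 21 libraries from suspension cultures of 4 tobacco lines. Per the labels and the study's methods, reads were trimmed (Trimmomatic is named in the labels, Rcorrector and Trim Galore in the methods) and quantified by the authors with Salmon 1.3.0 on the Nitab4.5 transcripts. The deposited tables hold, per transcript, estimated counts (of read pairs for BY-2H, of reads for the rest), TPM scaled within a library, and effective lengths in bases. Reads that match several transcripts are shared among them. The estimates were rounded, scaled by TMM and tested with edgeR 4.0.16 in R 4.3.3. Those tested exceeded a group mean of 0.5 TPM in any group. The fit of stationary BY-2H against BY-2 used 6 libraries, that of the VBI lines 12, that of the line pair difference 12 and that of BY-2H against VBI-2 21. SE is the absolute log2 fold change over the square root of F. The fits were tested on simulated data. The members and lists were chosen with earlier results of these data known. Named genes were the members, the scaffold transcripts, NtTIR1S and its called scaffold neighbours, and the 3 transcripts with the highest r per member. Alternatives were DESeq2 1.42.0, limma 3.58.1 on log2(TPM + 0.5) or log2(TPM + 1), median-of-ratios scaling, no filter, filterByExpr, a length offset, other libraries in the fit, a replicate block, other fold limits and leaving out each library. Sequences and positions were not used here.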

Additional observations from a re-analysis of the deposited data

Results flagged for a closer look

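For 3 of the 4 neighbours, the difference between stationary BY-2H and BY-2 differed from that between stationary VBI-2 and VBI-0 by the test of the difference itself (edgeR, 52% of all transcripts tested passed). The value was 3.97 on the log2 scale for g0110 (SE 0.35, adjusted p = 1.03e-07), where 3 of 3 BY-2H libraries lay above all BY-2 libraries and 3 of 3 VBI-2 libraries above all VBI-0 libraries by a smaller amount. It was −1.42 for g0120 (SE 0.44, adjusted p = 0.0123), lower in 3 of 3 BY-2H libraries and overlapping in the VBI lines, and it did not pass with limma on log2(TPM + 0.5) or log2(TPM + 1), at −0.80 and −0.79. It was −1.76 for g0130 (SE 0.46, adjusted p = 0.00445), lower in 3 of 3 BY-2H libraries and higher in 3 of 3 VBI-2 libraries. Sequencing company and read type changed with the line in the BY pair alone, and cannot be told apart from it.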

How the results depend on the processing

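Of 737 values of the 4 neighbours recomputed under alternatives, 685 kept direction and call, 32 that were called under neither setting changed sign, 16 gained a call, 4 lost one and 0 called values were reversed. In BY-2H against BY-2, limma on log2(TPM + 0.5) and log2(TPM + 1), which change test, scaling and unit together, gave −0.86 and −0.74 for g0130, without a call; the cause was not tested. With filterByExpr, g0060 was not tested there. Leaving out 1 library at a time gave log2 fold changes of 4.31 to 5.02 for g0110, −1.73 to −1.16 for g0120 and −1.68 to −1.13 for g0130, and adjusted p of 0.00683 to 0.0235 for g0060. With the adjusted p alone, by construction, 2 neighbours were called in VBI-2 against VBI-0 in each phase, 1 between the phases of BY-2H, and 4 in stationary and 3 in exponential BY-2H against VBI-2. Over all transcripts, that limit called 29962 (stationary) and 29425 (exponential) of 48440 in the VBI pair. It called 4668 of 44765 between the phases of BY-2H, and 33830 (stationary) and 33764 (exponential) of 49980 in BY-2H against VBI-2. The length offset called 2 neighbours in exponential BY-2H against VBI-2, and 26661 of 49980 transcripts. Without VBI-0 exponential replicate 3, g0110 reached 1.05 and 1 to 2 neighbours were called in exponential VBI-2 against VBI-0. Without VBI-0 exponential replicate 2, which held 3 of the 4 reads, g0060 was called between the phases of VBI-0 (0 to 1 neighbours called). Limma lost g0120 in the difference between line pairs, at −0.80 and −0.79, and turned g0060 there to −0.32 and −0.52. The g0060 value there was called under filterByExpr, the length offset (which takes 583 bases where g0060 has 0 reads, against 284 to 390 elsewhere), all 21 libraries and without BY-2H stationary replicate 3. Summed with Nitab4.5_0003614g0020.1, g0110 was called in exponential VBI-2 (1.23) and by phase in the VBI lines (−0.56).

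Over all transcripts, calls under alternatives ranged from 569 to 4668 between the phases of BY-2H (1200 in the comparison as reported), 411 to 2432 between those of VBI-2 (1.6% of transcripts as reported) and 1138 to 8764 between those of VBI-0 (2157). The VBI line by phase gave 1157 to 4040 (3303). In VBI-2 against VBI-0 the adjusted p alone called 29962 in stationary (19350) and 29425 in exponential cells (18666). Same-numbered libraries did not deviate alike from their group means, since 0 of 105 same-numbered pairs had a correlation of deviations over 0.1 (−0.138 to 0.0788). Pairs were counted in each fit, so that some recur. Whether the cultures were paired by number cannot be told from this. With the replicate block, BY-2H against BY-2 gave 4.63 for g0110, −1.41 for g0120, −1.43 for g0130 and adjusted p = 0.0144 for g0060 (edgeR), 18818 calls over all transcripts in place of 20386, and it changed no call of the 4 neighbours in any of the 10 comparisons. Depth limits g0060, with at most 41.7 reads per library.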
